A study of Mus musculus with 12 samples.

Results

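Gap junctions are clusters of channels that join the cytoplasm of neighboring cells and let ions and small metabolites pass. Each cell contributes a hexamer of connexin subunits, and the hexamers of 2 cells dock end to end. Connexins are named Gj genes in the mouse, and several of them are found in the walls of blood vessels: Gja1 (Cx43) is the most widely expressed member, Gja4 (Cx37) and Gja5 (Cx40) are known from arterial endothelium, and Gjc1 (Cx45) is known from smooth muscle and the cardiac conduction system. Gjb2 (Cx26) is best known from epithelia and the inner ear. Panx1 (pannexin 1) shares the membrane topology of the connexins but mainly forms single-membrane channels, through which cells release ATP. In the spleen, Cx43 is known from stromal and endothelial cells as well as from leukocytes.

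The 6 genes Gja1, Gja4, Gja5, Gjc1, Gjb2 and Panx1 were examined, out of 18221 genes in the spleen transcriptome. They were chosen by name, and the value of a gene was the sum of its transcripts in RPKM, a read density scaled by transcript length and by sequencing depth, so that levels of different genes can be set side by side. Spleens came from male ICR mice taken at 8 weeks of age. Control mice (Con-sa, n = 3) were dosed with saline. The other 3 groups of 3 all received a single injection of busulfan, an alkylating drug that kills dividing cells, at 40 mg/kg. B-sa mice then had saline, B+Con-FMT mice had gut microbiota from control donors, and B+A10-FMT mice had gut microbiota from donors dosed with alginate oligosaccharides at 10 mg/kg, given orally each day for 2 weeks. The transferred material was the small intestine content of the donors, pooled, so the 3 recipients of a group were not separate tests of the donors. Busulfan-treated mice were the background of both transfers, and transfer into mice without busulfan is not part of these data. The labels give 3 samples per group, taken here as 1 mouse each although they do not state it, so p-values measure the spread between these samples.

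The spleen identity of the libraries held: Cd79a of B cells was at a mean of 625 RPKM, and all 7 lymphoid markers were detected. The low values of short genes put the depth at about 15000000 to 15850000 reads per mouse. Globin transcripts took 24.9% to 25.9% of the summed RPKM in Con-sa mice and 28% to 32.4% in B-sa mice, against 25.3% to 29.4% after Con-FMT and 23.3% to 27.6% after A10-FMT. The B-sa mice were thus above all Con-sa and all B+A10-FMT mice, the opposite order to Gja1. With totals set equal outside the globin genes, the Gja1 calls given below held. Transcripts of tissues next to the spleen varied between mice. The 12 pancreatic acinar markers summed to 402.1 to 10783 RPKM, with all 3 B+Con-FMT mice at 6888 or above, B+A10-FMT mouse 3 at 8465 and Con-sa mouse 2 at 5646. Among 8 kidney markers, Napsa stayed at 86.83 to 118.18 RPKM in all mice, whereas Kap was at 72.66 to 112.29 RPKM in Con-sa mice, 7.23 to 14.43 in B-sa mice, 16.84 to 59.98 after Con-FMT and 0.58 to 2.96 after A10-FMT. Of the 4 kidney genes tested, 3 (Kap, Slc34a1 and Miox) fell after busulfan, as Gja1 and 9.78% of all genes did. The B cell genes Cd79a and Ms4a1 fell too (-0.32 and -0.38). In the same comparison 1 of 6 megakaryocyte genes (Gp9) rose, against 4.73% of all genes, and 2 of 6 mesothelial genes tested (Lrrn4 and Krt19) fell in B+A10-FMT against B-sa, where 1.27% of all genes did. With a mouse left out these counts were 0 to 2 and 0 to 5, and the calls of Gp9 and Krt19 were lost with the replicate block. None of 5 adipocyte genes was called by limma in any comparison, with a list median of -1.37 in B+A10-FMT against B-sa, where all 5 had an unadjusted p under 0.05, as did 24.5% of all genes.

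The genes differ in how they are built and in what lies before their start. In the GRCm38 mouse genome, Gja1 spans chr10:56377330-56402513 on the plus strand and its 382-residue protein is encoded in 1 exon of 2. The other 4 connexins are alike in this: Gja4 (chr4:127311421-127314039, minus strand, 333 residues), Gja5 (chr3:96904693-97077416, plus, 358 residues), Gjc1 (chr11:102799579-102819700, minus, 396 residues) and Gjb2 (chr14:57098600-57104702, minus, 226 residues) each have a single coding exon. Panx1 (chr9:15002128-15045478, minus, 426 residues) has 5 coding exons. The 250 bases before the RefSeq start are printed 5′ to 3′ for Gja1, the gene whose level changed, and for Gja4, whose values ran the other way between the FMT groups. Both strands were searched for TGANTCA, the AP-1 core, and GGGCGG, the GC box bound by Sp1, and the matches stand in capitals (RefSeq, GRCm38.p6, chr10:56377050-56377299 on the plus strand and chr4:127314040-127314289 on the minus strand).
Gja1: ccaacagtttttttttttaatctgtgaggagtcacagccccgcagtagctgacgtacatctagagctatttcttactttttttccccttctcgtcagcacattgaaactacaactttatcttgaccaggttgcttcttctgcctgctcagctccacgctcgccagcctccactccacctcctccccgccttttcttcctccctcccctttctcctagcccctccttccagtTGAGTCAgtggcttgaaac
Gja4: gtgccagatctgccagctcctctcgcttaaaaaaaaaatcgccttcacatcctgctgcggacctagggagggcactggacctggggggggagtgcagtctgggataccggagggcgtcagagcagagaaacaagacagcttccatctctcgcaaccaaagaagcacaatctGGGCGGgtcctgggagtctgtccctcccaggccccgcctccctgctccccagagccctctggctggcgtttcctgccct
TGAGTCA begins at position -19 of Gja1, counted back from -1 at the base before the start. The TGANTCA motif occurs in 6.75% of 32851 mouse promoter windows of the same length, and in no other of the 5 genes that had an entry. The GC box occurs in 32.7% of those windows: Gja4 (-79), Gja5 (-17) and Gjb2 (-211 and, on the opposite strand, -126) hold it, while Gja1 and Panx1 hold no match. These matches describe letters in a window and were not tested as binding sites.

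Of the 6 genes, Panx1 and Gja1 were the most abundant in every group, followed by Gja4, Gjc1 and then Gjb2 and Gja5. Panx1 had group means of 13.9 to 17.09 RPKM and Gja1 of 14.16 to 19.47 RPKM, while Gja4 stood between 4.213 and 5.727, Gjc1 between 1.443 and 1.917, Gjb2 between 0.7167 and 0.86 and Gja5 between 0.61 and 0.8467. Gja1 lay above Panx1 in 3 of 3 Con-sa mice, 2 of 3 B-sa mice, 0 of 3 B+Con-FMT mice and 3 of 3 B+A10-FMT mice. The ratio of the Gja1 level to the Panx1 level was 1.29 to 1.38 in B+A10-FMT mice and 0.767 to 0.971 in B+Con-FMT mice, so that the order of the 2 leading genes was opposite in the groups given microbiota. The levels of Gjb2 and Gja5 overlapped in each group and cannot be ordered.

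**Figure D1:**
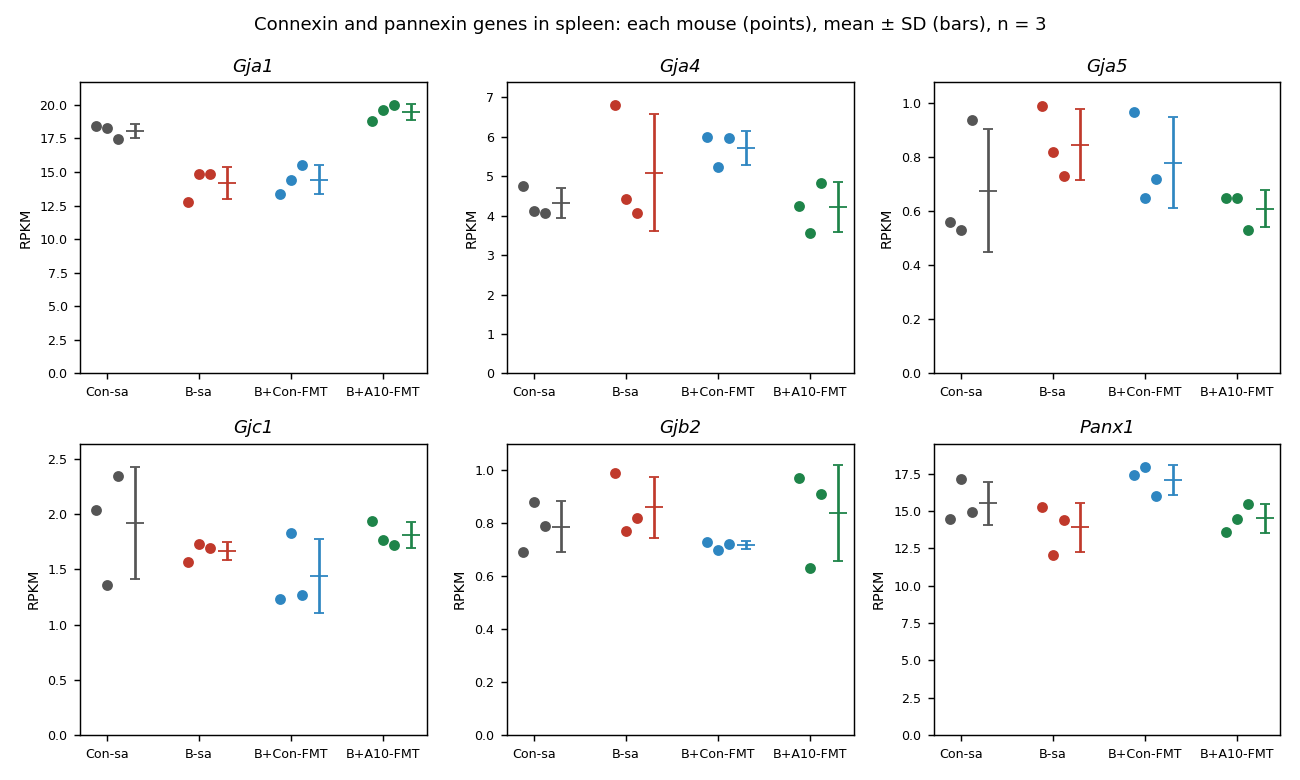
RPKM of the 6 genes (vertical axes, each from 0) in the 4 groups (horizontal axes), with 1 point per mouse and bars for the mean ± SD of 3 mice. Gja1 forms a high pair of groups (Con-sa and B+A10-FMT, 17.46 to 20.00) and a low pair (B-sa and B+Con-FMT, 12.78 to 15.51), a split that none of the other 5 genes shows.

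Gja1 was decreased after busulfan, and its values lay above those of the controls in the mice given A10-FMT and below them in those given Con-FMT. The Con-sa mice had 18.45, 18.28 and 17.46 RPKM (18.06 ± 0.529, SD, n = 3), and the B-sa mice had 12.78, 14.86 and 14.84 RPKM (14.16 ± 1.20). Every B-sa mouse lay below every Con-sa mouse. In limma across all 12671 genes tested, on log2(RPKM + 1), the log2 fold change was -0.33 (SE 0.069, 95% interval -0.48 to -0.18, adjusted p = 0.0108), and the mean RPKM fell by 21.6%. Gja1 was the 1 gene called lower of the 4 members tested, where 9.78% of all genes tested were called lower and 4.73% higher, and groups did not overlap for 34.0%. In whole-spleen RNA, fewer cells of a type and less RNA per cell cannot be told apart.

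The B+Con-FMT mice had 13.34, 14.37 and 15.51 RPKM of Gja1 (14.41 ± 1.09), which overlapped with B-sa. The log2 fold change against B-sa was 0.02, with a 95% interval of -0.13 to 0.17 (limma adjusted p = 0.89). None of the 4 members tested was called by limma in this comparison, where 0.844% of all genes were, and 1 (Panx1) had an unadjusted p under 0.05, as did 18.4% of all genes. Against Con-sa, Gja1 was still lower after Con-FMT, by -0.31 (95% interval -0.46 to -0.16, limma adjusted p = 0.0195), with no overlap between the mice. Of all genes tested, 6.57% were called lower in that comparison, and groups did not overlap for 34.1%. The Gja1 call was lost without Con-sa replicate 1, Con-sa replicate 2, B+Con-FMT replicate 1 or B+Con-FMT replicate 2, which gave adjusted p-values of 0.0708, 0.0654, 0.0712 and 0.053.

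The B+A10-FMT mice had 18.80, 19.60 and 20.00 RPKM of Gja1 (19.47 ± 0.611), the highest values of the 12 mice. Gja1 was increased over B-sa by 0.44 (SE 0.069, 95% interval 0.29 to 0.59, limma adjusted p = 0.0071), a mean RPKM 37.5% higher. It was also increased over B+Con-FMT by 0.41 (95% interval 0.26 to 0.56, limma adjusted p = 0.0059), a mean RPKM 35.1% higher. This is the test of A10-FMT against Con-FMT itself, and no mice overlapped in either comparison. Groups were also without overlap for 27.0% of all genes tested against B-sa and for 35.0% against B+Con-FMT. Of all genes tested, 5.27% were called in either direction against B-sa, and 7.58% were called higher against B+Con-FMT. Gja1 ranked 47 and 101 of 12671 by p-value. The direction of calls over all genes depended on the scaling: busulfan gave 599 higher and 1239 lower, or 966 and 736 under median-of-ratios scaling, and A10-FMT against Con-FMT gave 960 and 352, or 551 and 695. The calls of Gja1 were the same under both. Against Con-sa, all 3 B+A10-FMT mice were higher (7.77% in mean RPKM), but the log2 difference of 0.10 (95% interval -0.05 to 0.25) did not pass limma (adjusted p = 0.537). No member was called in that comparison, against 0.410% of all genes, and none of the 4 tested had an unadjusted p under 0.05, against 13.5%. Groups did not overlap there for 21.6% of genes. The moderated F test over the 4 groups called Gja1 too (adjusted p = 0.00389, with 17.1% of genes called). An exact permutation test of 3 against 3 mice cannot go below 0.1, and Gja1 gave that two-sided p in the 5 comparisons without overlap and 0.7 for Con-FMT against B-sa. The comparisons share groups and are not independent of each other.

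**Figure D2:**
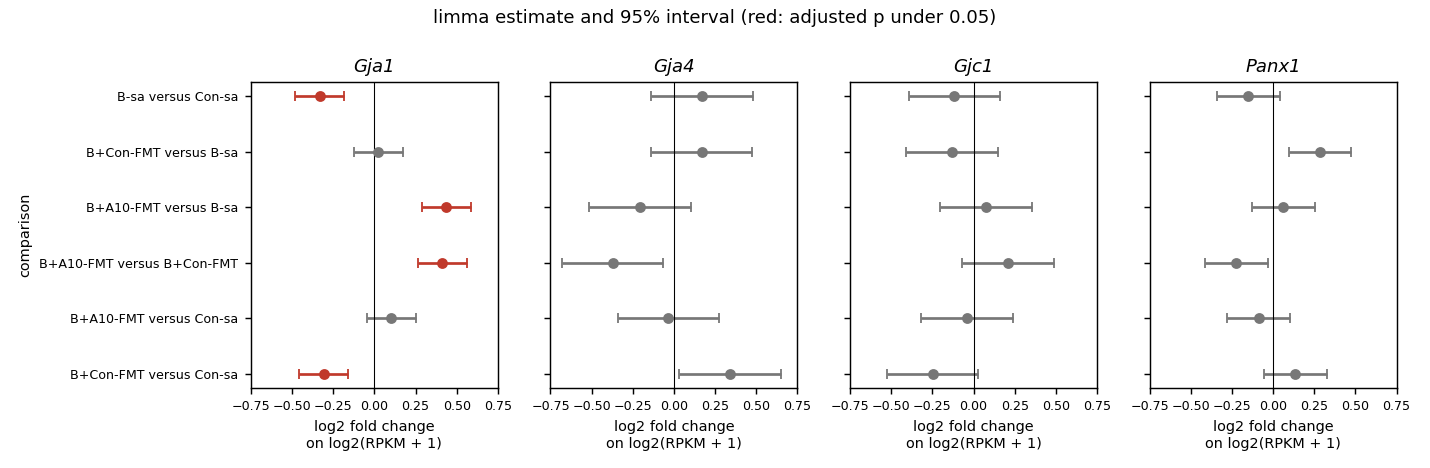
log2 fold changes on log2(RPKM + 1) (horizontal axes) for the 4 members that passed the filter on low values, in 6 comparisons (vertical axis), with 95% intervals from limma and red for an adjusted p under 0.05. Gja1 has the 4 red points, from -0.33 for busulfan alone to 0.44 in B+A10-FMT against B-sa.

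Gja4, a connexin of arterial endothelium, did not follow Gja1. It had 4.76, 4.13 and 4.07 RPKM in Con-sa mice and 6.80, 4.42 and 4.06 in B-sa mice, where mouse 1 stood apart. It had 5.99, 5.23 and 5.96 RPKM in B+Con-FMT mice and 4.24, 3.57 and 4.83 in B+A10-FMT mice. The B+Con-FMT mice thus lay above every Con-sa mouse and every B+A10-FMT mouse. The log2 fold change of B+A10-FMT against B+Con-FMT was -0.37 (95% interval -0.68 to -0.06), the opposite sign to Gja1, but it did not pass the correction (limma adjusted p = 0.108, unadjusted 0.0216). Likewise, B+Con-FMT against Con-sa gave 0.34 (95% interval 0.03 to 0.65, adjusted p = 0.146). Groups were without overlap for 35.0% and 34.1% of all genes in those 2 comparisons. B-sa mouse 1 bears on both: without it, limma gave adjusted p-values of 0.0312 and 0.047, with 1 estimate of the spread shared by all groups. It also turned the difference of B-sa from Con-sa, which was 0.17 with that mouse and -0.02 without it.

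Gja5, the second connexin of arterial endothelium, was measured at a low level. The mice had 0.56, 0.53 and 0.94 RPKM in Con-sa, 0.99, 0.82 and 0.73 in B-sa, 0.97, 0.65 and 0.72 after Con-FMT, and 0.65, 0.65 and 0.53 after A10-FMT. No mouse reached 1 RPKM, so Gja5 was left out of the test across all genes. The B+A10-FMT mice lay below every B-sa mouse (log2 difference -0.20, exact permutation p = 0.1, two-sided), and 27.0% of all genes tested were without overlap there. The other comparisons overlapped. Its 2 transcripts were never detected together in a mouse: Con-sa mouse 1 and B+Con-FMT mouse 2 had all reads on one and the other 10 mice on the other, so only the sum was used.

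Gjc1, the connexin of smooth muscle and pacemaker tissue, showed no called difference. It had 2.04, 1.36 and 2.35 RPKM in Con-sa, 1.57, 1.73 and 1.69 in B-sa, 1.23, 1.83 and 1.27 after Con-FMT, and 1.94, 1.77 and 1.72 after A10-FMT. The mice overlapped in every pair of groups, and the 3 Con-sa mice were spread the most. Its log2 fold changes ran from -0.25 (95% interval -0.53 to 0.03) in B+Con-FMT versus Con-sa to 0.21 (-0.07 to 0.49) in A10-FMT against Con-FMT, with limma adjusted p-values from 0.233 upward in the 6 comparisons. Reads of Gjc1 were spread over 6 transcripts, each at 0 in 2 or more mice.

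Gjb2, the epithelial connexin, had 0.69, 0.88 and 0.79 RPKM in Con-sa, 0.99, 0.77 and 0.82 in B-sa, 0.73, 0.70 and 0.72 after Con-FMT, and 0.97, 0.63 and 0.91 after A10-FMT. It too stayed under 1 RPKM in every mouse and was not tested across all genes. The estimated depth corresponds to only 22 to 34 reads per mouse, against 573 to 898 for Gja1, 85 to 159 for Gja4 and 1050 to 1500 for Panx1. The B+Con-FMT mice lay below the B-sa mice (log2 difference -0.11, exact permutation p = 0.1, two-sided), a comparison in which 19.4% of all genes tested did not overlap.

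Panx1, the ATP release channel, had its highest mean in the mice given Con-FMT. It had 14.47, 17.12 and 14.90 RPKM in Con-sa, 15.25, 12.04 and 14.40 in B-sa, 17.39, 17.91 and 15.98 after Con-FMT, and 13.58, 14.45 and 15.49 after A10-FMT. The B+Con-FMT mice were above all B-sa and all B+A10-FMT mice, where 19.4% and 35.0% of all genes tested did not overlap, and overlapped with Con-sa. Neither difference passed the correction: 0.29 against B-sa (95% interval 0.09 to 0.48, limma adjusted p = 0.128, unadjusted 0.00665) and -0.22 for B+A10-FMT against B+Con-FMT (-0.41 to -0.03, adjusted p = 0.119). Busulfan alone gave -0.15 (-0.34 to 0.04, adjusted p = 0.266). The pancreatic acinar markers were also highest after Con-FMT, at 6888 to 10783 RPKM in sum against 402.1 to 2761 in B-sa mice. All 12 genes of the list were above B-sa without overlap, against 19.4% of all genes without overlap in either direction, and none was called by limma. B+A10-FMT mouse 3, at 8465 RPKM of these markers, had the highest Gja1, Gja4 and Panx1 of its group. Without that mouse the Gja1 calls against B-sa and Con-FMT held, and the part of these transcripts in the Gja4 and Panx1 values was not tested. With all members counted by RPKM, the 6 genes summed to 40.51 to 42.3 in Con-sa mice, 34.64 to 38.38 in B-sa mice, 39.65 to 40.69 after Con-FMT and 40.18 to 43.48 after A10-FMT. Gja1 made up 35.9% ± 2.53 of that sum after Con-FMT and 47% ± 1.11 after A10-FMT.

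Among the remaining connexins and pannexins, 12 of 17 listed genes were in the tables and the others were not analysed here. Gjc3 alone passed the filter on low values, at a mean of 1.033 RPKM, and none of its 6 comparisons was called. Gjb1, known from liver and Schwann cells, had 0.75, 0.18 and 2.01 RPKM in Con-sa mice, and ranged from 0.34 to 0.48 in B-sa mice, 0.24 to 0.81 after Con-FMT and 0.05 to 0.24 after A10-FMT. Gja10 and Gjb6 were under 0.1 RPKM in every mouse.

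Gja1 is expressed by endothelial cells among others, and many of the endothelial markers ran with it. Of 16 endothelial genes, all tested, 7 fell and none rose in B-sa versus Con-sa (list median -0.28, against -0.04 for all genes, of which 9.78% were called lower). In B+A10-FMT against B-sa, 6 rose and none fell (list median 0.31, against 0.05, with 5.27% of all genes called), and in A10-FMT against Con-FMT 11 rose and none fell (0.40, against 0.05, with 7.58% called higher). In B+Con-FMT versus Con-sa, 9 fell and none rose (-0.33, with 6.57% of all genes called lower), and 3 to 9 were called with a mouse left out (3 without Con-sa replicate 1 or B+Con-FMT replicate 1). None was called for Con-FMT against B-sa or in B+A10-FMT versus Con-sa. The counts rested on the scaling and on single mice. Under median-of-ratios scaling 5 genes fell after busulfan, 6 rose in B+A10-FMT against B-sa and 8 rose in A10-FMT against Con-FMT. After busulfan, 2 genes were called without B-sa replicate 2 or Con-sa replicate 3, and 3 without Con-sa replicate 1 or B-sa replicate 3. In B+A10-FMT against B-sa, 1 was called without B+A10-FMT replicate 2, and 2 and 3 without B-sa replicates 2 and 3. Between the FMT groups, 4 were called without B+A10-FMT replicate 2, and 6 without B+Con-FMT replicate 1 or 2. The list medians of the 3 comparisons stayed at -0.23 or below, 0.27 or above and 0.32 or above in all of these fits.

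Stab2, a scavenger receptor of sinusoidal endothelium, was among the 3 genes most like Gja1 and had 15.25 ± 0.936 RPKM in Con-sa, 10.54 ± 0.749 in B-sa, 10.61 ± 0.784 after Con-FMT and 15.55 ± 0.59 after A10-FMT. It fell by 0.49 on the log2 scale after busulfan (limma adjusted p = 0.00358) and was 0.51 higher after A10-FMT than after Con-FMT (adjusted p = 0.00211). Ptprb, the endothelial phosphatase VE-PTP, changed by -0.51 and 0.54 in the same comparisons (adjusted p = 0.00518 and 0.004), and Eng, the TGF-beta co-receptor endoglin, by -0.35 and 0.55 (0.0194 and 0.00384). Plvap, which forms the diaphragms of fenestrated vessels and was the most abundant gene of the list (mean 74.51 RPKM), fell by 0.36 after busulfan (adjusted p = 0.021; called in 7 of 12 fits with a mouse left out) and was 0.41 and 0.48 higher after A10-FMT than in B-sa and after Con-FMT (0.0241 and 0.00923). Cdh5, the VE-cadherin of endothelial junctions, was 0.50 and 0.57 higher after A10-FMT than in B-sa and after Con-FMT (adjusted p = 0.023 and 0.00962), while its difference of -0.32 after busulfan did not pass (0.0596). Kdr, the VEGF receptor 2, was 0.58 higher after A10-FMT than after Con-FMT (adjusted p = 0.00486). Other endothelial genes did not follow Gja1. Vwf, the von Willebrand factor gene, had 0.16 after busulfan and -0.04 in B+A10-FMT against B-sa, Emcn (endomucin) had -0.01 and -0.09, and the adhesion gene Esam had 0.03 and 0.01. Egfl7 had -0.18 after busulfan but 0.02 in B+A10-FMT against B-sa. None of these 4 genes was called in any comparison.

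**Figure D3:**
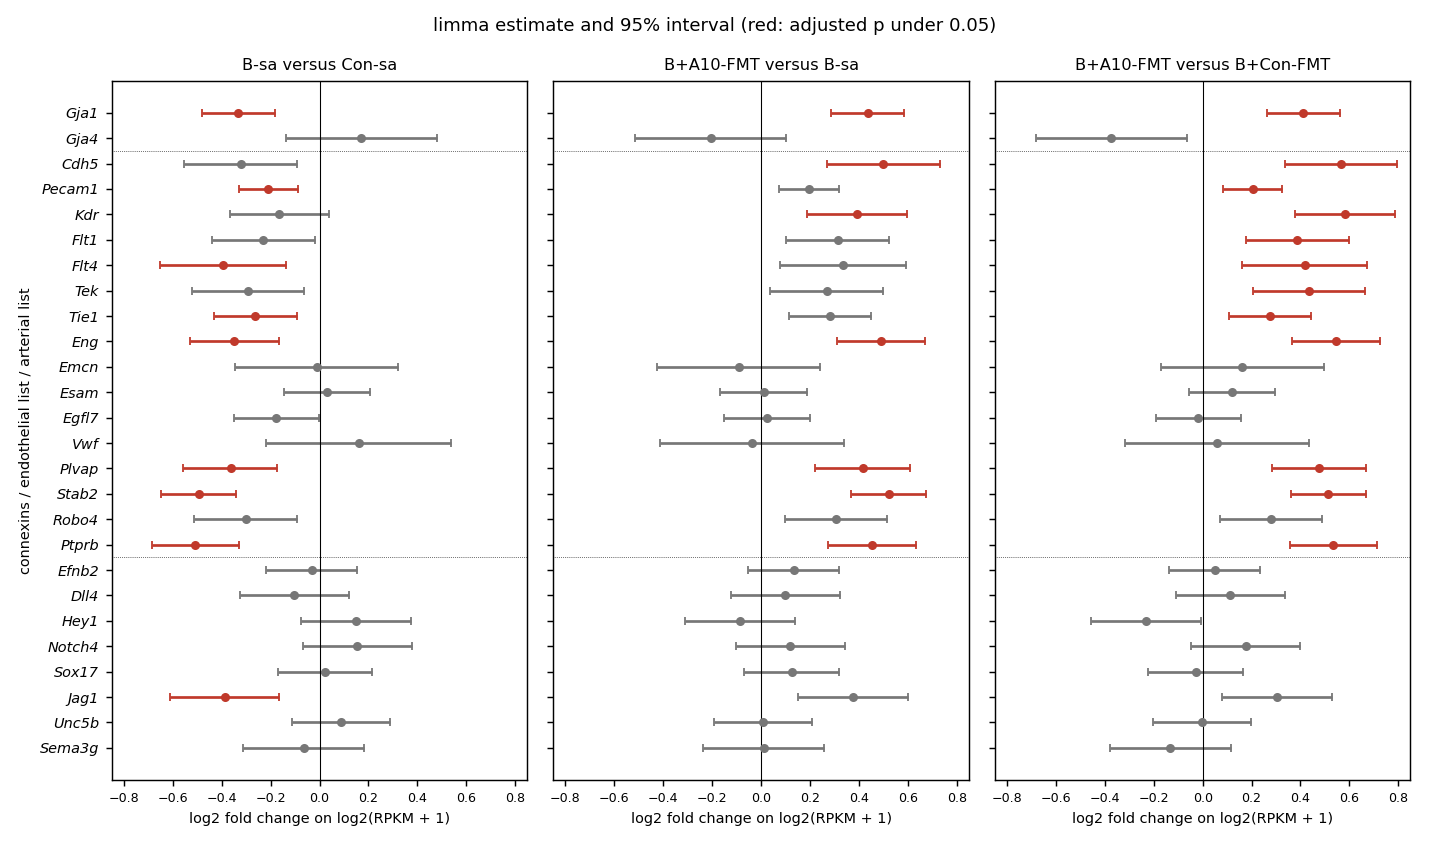
log2 fold changes on log2(RPKM + 1) with 95% intervals (horizontal axes) of Gja1 and Gja4, the 16 endothelial genes and the 8 arterial genes tested (vertical axis, divided by dotted lines) in 3 comparisons, with red for a limma adjusted p under 0.05. Endothelial genes are red on the same side as Gja1, 7 lower in the left panel and 6 and 11 higher in the others, whereas 1 arterial gene (Jag1, -0.39) is red.

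Summed over the 16 genes, the endothelial markers stood at 280.6 to 290.4 RPKM in Con-sa mice, 227.2 to 244.3 in B-sa mice, 205.7 to 245.2 after Con-FMT and 284.9 to 303.2 after A10-FMT, and none was at 0. Set against this sum, the Gja1 level was not separated between any groups. It came to 6.36 ± 0.306 RPKM per 100 RPKM of endothelial markers in Con-sa, 6.08 ± 0.735 in B-sa, 6.39 ± 0.0854 after Con-FMT and 6.63 ± 0.343 after A10-FMT (SD, n = 3 each). The groups overlapped in all 6 comparisons, with exact two-sided permutation p-values from 0.3 to 1. The part of endothelial cell number in the Gja1 result was not tested.

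Fewer calls were made among the arterial markers, and the difference from the endothelial list was not tested. Of 8 tested, Jag1, a Notch ligand, fell in B-sa (-0.39, limma adjusted p = 0.0283; called in 7 of 12 fits with a mouse left out), against 9.78% of all genes. None was called in B+A10-FMT against B-sa or B+Con-FMT, where 5.27% and 10.4% of all genes were. In these, 1 and 2 arterial genes had an unadjusted p under 0.05, against 24.5% and 28.9% of all genes. The arterial sum overlapped between Con-sa (17.64 to 20.78 RPKM) and B-sa (18.37 to 18.58), and both FMT groups lay above every B-sa mouse, at 19.51 to 19.9 after Con-FMT and 19.78 to 21.47 after A10-FMT. Efnb2, the arterial ephrin and the most abundant of them, was at 4.38 ± 0.229 RPKM in Con-sa and 4.27 ± 0.393 in B-sa. Per 100 RPKM of arterial markers, Gja1 came to 94.8 in Con-sa, 76.5 in B-sa, 73 after Con-FMT and 93.9 after A10-FMT, without overlap in 4 comparisons (exact permutation p = 0.1, the lowest possible). For B+A10-FMT versus Con-sa, where the Gja1 level itself did not overlap, this ratio did (exact permutation p = 1). These ratios were chosen after the values were seen.

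**Figure D4:**
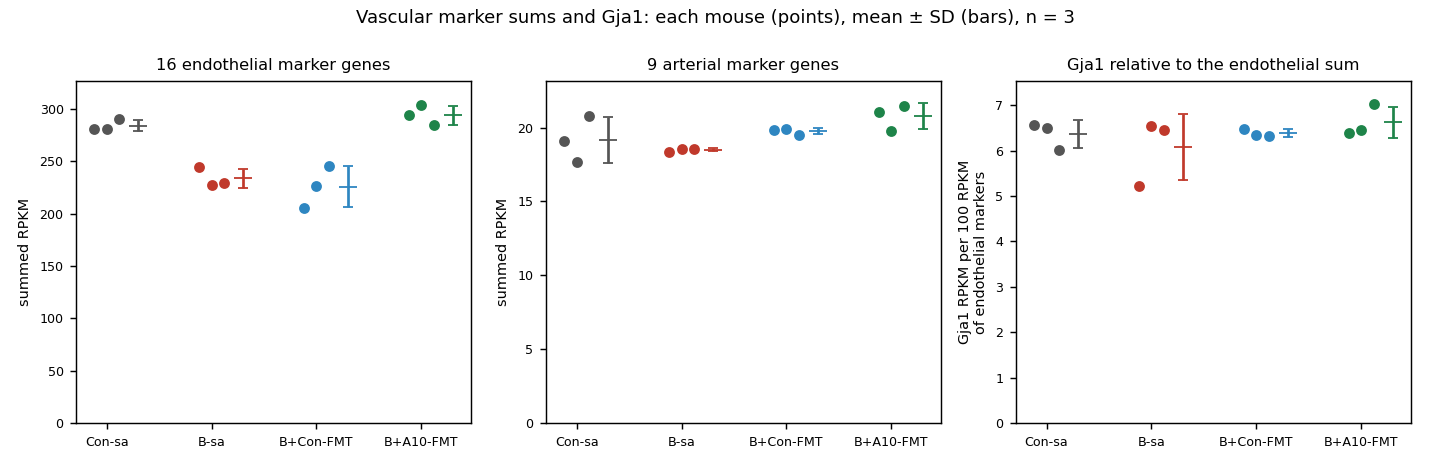
Summed RPKM of 16 endothelial markers (left) and 9 arterial markers (middle), and Gja1 RPKM per 100 RPKM of the endothelial sum (right), by group, with 1 point per mouse and bars for the mean ± SD of 3 mice. The endothelial sum splits as Gja1 does (205.7 to 245.2 against 280.6 to 303.2), while the ratio at right has means of 6.08 to 6.63 and overlapping mice.

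Markers of other cell types that can hold Cx43 were set beside it too. Of 9 macrophage markers, 3 rose in B+A10-FMT against B-sa (0 to 4 with a mouse left out) and 7 in A10-FMT against Con-FMT, and none was called after busulfan. Of all genes, 5.27% were called in the first of these comparisons and 7.58% were called higher in the second. The macrophage sum ran from 423.2 to 436.7 RPKM in Con-sa mice and from 360.8 to 419.1 in B-sa mice, and was 327.8 to 439.4 after Con-FMT and 450.5 to 576.5 after A10-FMT. Siglec1, the sialoadhesin of marginal metallophilic macrophages, was 0.98 higher on the log2 scale after A10-FMT than after Con-FMT (limma adjusted p = 0.0122). Under the median-of-ratios scaling, 2 instead of 7 macrophage genes were called in that comparison, and without B+A10-FMT replicate 2 none was. Per 100 RPKM of macrophage markers, Gja1 came to 4.19 in Con-sa, 3.55 in B-sa, 3.81 after Con-FMT and 3.74 after A10-FMT. As with the endothelial sum, this ratio overlapped between A10-FMT and both B-sa and Con-FMT (exact permutation p = 1 and 0.8), while B-sa lay below Con-sa without overlap (p = 0.1). Of 13 fibroblast and reticular genes, 2 fell after busulfan and 2 rose and 1 fell in B+A10-FMT against B-sa, with 0 to 3 and 1 to 4 called when a mouse was left out, where 14.5% and 5.27% of all genes were called. Tlx1, the transcription factor of the splenic stroma, did both: it changed by -0.25 after busulfan and by 0.61 in B+A10-FMT against B-sa (adjusted p = 0.034 and 0.0013), which held in 7 and 12 of the 12 fits with a mouse left out and in 5 and 9 of 9 other settings. Dcn went the other way in B+A10-FMT against B-sa (-0.73, limma adjusted p = 0.0222; called in 8 of the 12 fits). There, 9 of the 13 genes were lower and the list median was -0.13. Of 9 smooth muscle and pericyte genes, Notch3 had -0.32 after busulfan (adjusted p = 0.049). This call was lost under median-of-ratios scaling and with the replicate block, and kept in 2 of 12 fits with a mouse left out. Rgs5 fell in B+A10-FMT against B-sa (-0.42, adjusted p = 0.036), a call kept in 6 of those 12 fits and lost with the replicate block. Pdgfrb and Notch3 were higher after A10-FMT than after Con-FMT (0.56 and 0.40, adjusted p = 0.0174 and 0.0272; called in 10 and 8 of the 12 fits). However, 6 of the 9 genes were lower in that comparison (list median -0.13), among them Acta2 (-0.44) and Myh11 (-0.40), neither of them called. Calls were made for 14.5%, 5.27% and 10.4% of all genes in B-sa versus Con-sa, B+A10-FMT against B-sa and A10-FMT against Con-FMT. Per 100 RPKM of the smooth muscle or the fibroblast list, Gja1 was higher after A10-FMT than in B-sa and after Con-FMT without overlap (9.14 against 6.78 and 6.46, and 1.89 against 1.27 and 1.12), and it overlapped between B-sa and Con-sa. Ccl21a was the most abundant gene of the fibroblast list, at a mean of 660.4 RPKM in list sums of 893.3 to 1455. It ran from 449.25 to 847.06 RPKM within B-sa alone. The ratio to the fibroblast list thus rested largely on Ccl21a and does not measure fibroblast content. Sums of these 2 stromal lists overlapped between Con-sa and B-sa and between B-sa and B+A10-FMT. Kap, the kidney androgen-regulated protein gene, was highest in Con-sa mice as given above and did not rise with Gja1 after A10-FMT, where it was lower than after Con-FMT (-3.59, limma adjusted p = 0.00789). The part of kidney, macrophage and stromal transcripts in the Gja1 values was not tested.

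Proteins that bind Cx43 or act on it were mostly not called: of 21 genes tested, 3 rose and 2 fell in B-sa versus Con-sa, 2 rose in B+A10-FMT against B-sa and 3 rose in A10-FMT against Con-FMT. Of all genes, 14.5%, 5.27% and 10.4% were called in these comparisons. Tjp1 encodes ZO-1, the scaffold that binds the tail of Cx43 at the edge of the gap junction plaque, and it went against Gja1 after busulfan. It was at 4.403 ± 0.415 RPKM in Con-sa, 6.873 ± 0.497 in B-sa, 5.233 ± 1.03 after Con-FMT and 7.673 ± 0.846 after A10-FMT. Tjp1 rose by 0.54 in B-sa (limma adjusted p = 0.0112) and was 0.48 higher after A10-FMT than after Con-FMT (0.0218) and 0.68 higher after A10-FMT than in Con-sa (0.0235). Nedd4, a ubiquitin ligase that acts on Cx43, was 0.22 and 0.28 higher after A10-FMT than in B-sa and after Con-FMT (adjusted p = 0.0458 and 0.0132). The first of these calls was lost with the replicate block and kept in 2 of 12 fits with a mouse left out. The tubulins Tuba1b, the most abundant gene of the list at a mean of 774.2 RPKM, and Tubb5 rose after busulfan by 0.33 and 0.21 (adjusted p = 0.00691 and 0.017), although near-identical tubulin copies can share reads, and the kinase gene Prkcd fell by 0.23 (0.0192). Cdh5 stood in this list as well as among the endothelial genes. With each mouse left out in turn, 2 to 6 of the list were called after busulfan, 0 to 2 in B+A10-FMT against B-sa and 0 to 3 between the FMT groups, with 0 in both of the latter without B+A10-FMT replicate 2.

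Receptors for the ATP that Panx1 channels release, enzymes that degrade it and other genes listed with them made up a list of 18 genes. Of the 16 tested, 5 rose and 1 fell in A10-FMT against Con-FMT, where 10.4% of all genes were called. In B+A10-FMT against B-sa, 2 rose, where 5.27% of all genes were called. After busulfan 1 was called, P2ry10 (-0.32, limma adjusted p = 0.0278), where 14.5% of all genes were, and none under median-of-ratios scaling. P2ry14, the receptor for UDP-glucose, was at 13.7 ± 0.899 RPKM in Con-sa, 11.53 ± 0.42 in B-sa, 10.89 ± 1.2 after Con-FMT and 16.04 ± 1.28 after A10-FMT. It was 0.44 and 0.52 higher after A10-FMT than in B-sa and after Con-FMT (adjusted p = 0.0136 and 0.00431). P2ry2, a receptor for ATP and UTP, was 0.39 higher than in B-sa (0.0254), and P2ry12 and P2ry13 were 0.35 and 0.46 higher than after Con-FMT (0.0307 and 0.0342). These 3 calls held in 7, 8 and 9 of 12 fits with a mouse left out, and that of P2ry13 was lost with the replicate block. With each mouse left out in turn, 0 to 4 genes were called after busulfan, 0 to 3 in B+A10-FMT against B-sa and 1 to 6 between the FMT groups, the last down to 1 without B+A10-FMT replicate 2 or B+Con-FMT replicate 1.

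The genes closest to each tested member across the 12 mice were taken by Pearson r among 11709 genes with at least 1 RPKM in every mouse, as a description with no test, since mice of a group share their treatment. For Gja1 they were Sorbs2 (0.973), an adaptor of the actin cytoskeleton, Stab2 (0.971) and Shroom3 (0.965), an actin regulator. Sorbs2 had 14.7 ± 0.769, 10.18 ± 1.14, 10.27 ± 0.448 and 16.49 ± 0.581 RPKM in the Con-sa, B-sa, Con-FMT and A10-FMT groups. For Gja4 they were Rsl1d1 (0.893), Epcam (0.879) and Mfge8 (0.878), for Panx1 Hid1 (0.899), Zfp472 (0.894) and Lpxn (0.894), and for Gjc1 Smg5 (0.836), Sik1 (0.822) and Ap3s2 (0.807). None of these last 9 genes was called in any of the 6 comparisons.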

How the data were processed

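Total RNA of 12 mouse spleens was enriched for polyadenylated transcripts and sequenced by the authors, who deposited 1 table per sample with an RPKM value for each RefSeq transcript. The paper names SOAPaligner and an Illumina sequencer, and the labels name HISAT, Bowtie2, mm10 and BGISEQ protocols, so the aligner behind the values is not settled. The deposited RPKM values have 2 decimals and carry no counts. The depth was therefore estimated from the steps between low values, of which 51.9% to 68.2% fell within 0.1 of a whole read, and is approximate.

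RPKM was summed over 60654 transcripts to 18221 genes. Low genes were left out (the filter was 1 RPKM in 3 or more mice), and the other 12671 were fitted as log2(RPKM + 1), a scale on which changes of low genes are understated, with limma 3.58.1 (R 4.3.3; trend and robust options, group as the only term, all 12 mice), Benjamini-Hochberg adjustment and a threshold of 0.05. The procedure was tested on simulated data. Single values were compared by exact two-sided permutation (SciPy 1.17.1). Groups came from the sample labels, and no mouse was left out of the main fit. Alternatives covered the pseudocount, filter, scaling, transcripts, groups fitted, limma options, a replicate block and leaving out each mouse.

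The genes and lists were chosen with earlier results of these data known, so list counts are descriptions. Named in the text were the 6 members, the genes of each list called in the main comparisons (at most 4 by adjusted p), each list's most abundant gene and the 3 genes most like each tested member; the report gives those of the lists it describes, and a few genes that the rule or the lists hold are not reported here by name. Gene models were taken from GENCODE M21 (GRCm38) and promoters from RefSeq (GRCm38.p6). Protein sequences were not used here.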

Additional observations from a re-analysis of the deposited data

How the results depend on the processing

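Gja1 kept its call in B-sa versus Con-sa (-0.35 to -0.29), B+A10-FMT against B-sa (0.39 to 0.46), A10-FMT against Con-FMT (0.36 to 0.47) and B+Con-FMT versus Con-sa (-0.36 to -0.26) under 9 other settings, and in the first 3 with each mouse left out (-0.37 to -0.27, 0.37 to 0.47 and 0.36 to 0.46). In B+Con-FMT versus Con-sa it was called in 8 of 12 such fits (-0.36 to -0.26), so the members called there were 0 to 2, and in A10-FMT against Con-FMT and over the 4 groups 1 to 2, the second being Gja4. With only the 2 groups compared, 2 members were called in B+Con-FMT versus Con-sa (Gja4, adjusted p = 0.0451). Near 0, signs turned: Gja1 in B+Con-FMT versus B-sa was -0.026 with equal totals outside the globin genes and -0.043 to 0.075 with a mouse left out, and leaving out a mouse gave -0.020 to 0.292 for Gja4 in B-sa versus Con-sa, and -0.118 to 0.058, -0.184 to 0.068 and -0.031 to 0.128 for Gja4 and Gjc1 in B+A10-FMT versus Con-sa and Panx1 in B+A10-FMT against B-sa. The causes were not tested. Scaling by the median of ratios changed the split of all genes called in B+A10-FMT against B-sa from 507 higher and 161 lower to 287 and 329, but not the Gja1 calls. With curated NM transcripts only, 4, 3 and 6 endothelial genes were called after busulfan, in B+A10-FMT against B-sa and between the FMT groups, in place of 7, 6 and 11.

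The deviations of samples with the same replicate number had correlations of -0.373 to 0.303 over 18 pairs (mean -0.0378). Samples with different numbers had -0.432 to 0.512 over 36 pairs (mean 0.0212). These ranges overlap, and with so few mice per group the check cannot decide whether the numbers pair mice. With the replicate block, 1 member (Gja1) was called in the same 4 comparisons, with adjusted p-values of 0.0154, 0.00995, 0.00803 and 0.0257, and the endothelial calls were 5, 5 and 7. Gja5 and Gjb2 stayed under 1 RPKM in every mouse and were not called without the filter either. Gjb2 rested on an estimated 22 to 34 reads per mouse, which limits its precision.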
